A study of Mus musculus with 18 samples.

Results

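The genotype by LPS interaction asks, for every gene, whether lipopolysaccharide (LPS) changed its RNA by a different amount in Bat3-deleted cells than in wild-type cells. It is the log2 difference (cKO with LPS minus cKO in medium) minus (WT with LPS minus WT in medium). A positive value means a larger rise, or a smaller fall, in the deleted cells. It rests on 12 of the 18 libraries of the series, 3 in each of 4 groups, and on 11876 of the 23420 listed genes, those that passed a filter on low counts. All 12 came from bone marrow-derived dendritic cells (BMDC) of C57BL/6 mice, grown with GM-CSF at 20 ng/ml, replated on day 9, kept for 8 hours in medium or in LPS, and sorted as live cells with high CD11c. The cKO mice carry the genotype Bat3 fl/fl CD11c Cre, and the others are labelled wild type (WT). Cre runs from the CD11c promoter, so deletion is limited to cells that switch it on during the culture. The labels do not say if the WT mice carried Cre or floxed alleles, and loss of Bat3 and carriage of those alleles cannot be told apart. No label ties each library to a separate animal or culture, so the p-values measure the spread between these libraries, which may be technical in part.

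BAG6, also called BAT3, is a cytosolic chaperone that holds hydrophobic stretches of newly made proteins, passes tail-anchored proteins towards the endoplasmic reticulum and sends misplaced proteins to the proteasome. LPS is a bacterial cell wall lipid that binds TLR4 on dendritic cells. It starts NF-kB and MAP kinase signalling, which switches on immediate early genes and cytokines within minutes to hours, and TRIF signalling, which leads to type I interferon and a later wave of interferon-stimulated genes.

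Bag6 (chr17:35135156-35147321, coordinates from RefSeq GRCm38.p6), the targeted gene, was lower in all 6 cKO libraries than in all 6 WT libraries. Bag6 was at 22.8, 24.6 and 23.1 CPM in WT medium, 24.2, 23.2 and 24.7 in WT with LPS, 4.81, 7.31 and 4.56 in cKO medium and 11.3, 10.4 and 6.31 in cKO with LPS. Its RNA was 4.23-fold lower in cKO in medium and 2.56-fold lower under LPS, and the interaction was 0.72 ± 0.25 (SE, adjusted p = 0.0478). That call was lost without any single one of WT medium 1, WT medium 2, WT medium 3, WT LPS 1, WT LPS 2, WT LPS 3, cKO medium 1, cKO medium 3, cKO LPS 1 and cKO LPS 2 (adjusted p 0.0603 to 0.124), and without the first library of both cKO groups (0.47, adjusted p = 0.287). It was also lost on the TPM scale (0.34), in a fit of only the 4 groups (0.77) and under upper-quartile scaling (0.69). Library totals ran from 8056831 to 10246584 expected counts. The 45S ribosomal RNA precursor Rn45s took 1.28 to 4.01% of the counts in cKO medium and 4.48 to 8.02% in the other 9 libraries. The first library of each cKO group held Xist at 526 and 1014 CPM with Ddx3y near 0, the pattern of female cells. The other 10 held Ddx3y and almost no Xist, the pattern of male cells. Each cKO group therefore mixed cells of both sexes, and all 6 WT libraries had the male pattern. Results were therefore also computed without both of those libraries. The defining dendritic cell gene Itgax, which encodes CD11c, was at 469.9 to 1014 CPM in the 12 libraries, while Flt3 was at or near 0. Macrophage genes were abundant as well (Lyz2 group means of 9032 to 14404.5 CPM), and the 15 lymphocyte markers together came to 2.52 to 11.6 CPM.

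LPS responses differed between the genotypes for 2070 genes, 17.4% of the 11876 tested (edgeR quasi-likelihood test, Benjamini-Hochberg adjusted p under 0.05). The interaction was positive for 870 genes (7.33%) and negative for 1200 (10.1%), and its median over all genes tested was -0.08. Among the called genes the median was 0.78 for positive and -0.87 for negative ones. A difference of at least 1 on the log2 scale was reached by 259 positive and 473 negative calls. The balance of the directions moved with the method. RLE scaling alone gave 1111 positive and 901 negative calls and upper-quartile scaling 771 and 1379. DESeq2, which changes the test as well, gave 1231 and 989. Limma on log2(TPM + 1), which changes model and unit together and where the median of all genes was -0.25, gave 419 and 2890. List counts on the TPM scale are to be read beside those 419 positive and 2890 negative calls of 11876 genes. Those on counts are to be read beside 7.33% and 10.1%. No gene called here was called in the opposite direction under any of the 24 alternatives. Without the first library of both cKO groups 1268 genes were called, 540 positive and 728 negative. Leaving out cKO LPS 2 or cKO LPS 3 gave 728 and 745 negative calls.

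The LPS arms of WT and cKO share no library, so the responses can be set side by side. LPS raised 3537 genes (29.8%) and lowered 3432 (28.9%) in WT, and it raised 3476 (29.3%) and lowered 4138 (34.8%) in cKO. Of the 870 positive calls, 353 rose in both genotypes, with a median log2 response of 0.90 in WT and 1.77 in cKO. Another 229 rose in cKO alone by call, 166 fell in WT and were not called in cKO, 62 fell in WT and rose in cKO, and 58 fell in both, by a median of -1.37 in WT and -0.70 in cKO. Of the 1200 negative calls, 453 fell in cKO and were not called in WT, and 348 fell in both, by a median of -0.73 in WT and -1.66 in cKO. A rise in WT with no call in cKO was seen for 211, a rise in WT with a fall in cKO for 91, and a rise in both for 83, with medians of 1.76 and 0.82.

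**Figure D1:**
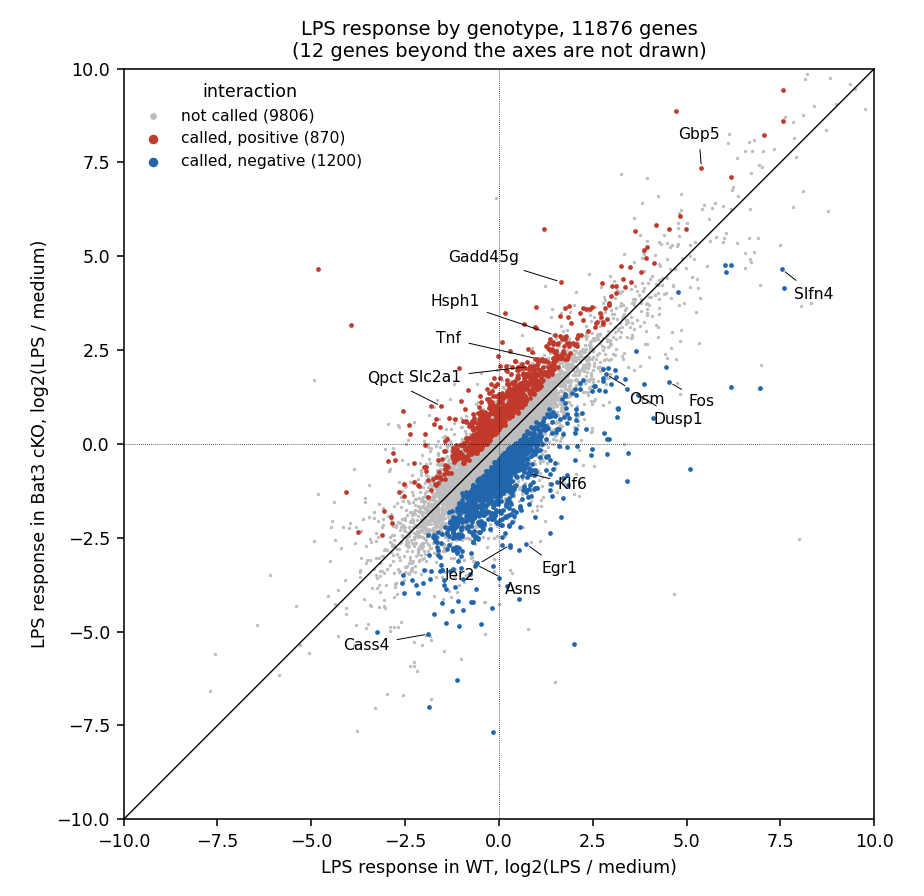
LPS response of each of 11876 genes in WT (x axis) and in Bat3 cKO (y axis), both as log2(LPS / medium); red and blue points are the 870 positive and 1200 negative calls, grey points were not called, and 12 genes beyond the axes are not drawn. Called genes lie off the diagonal of equal response, with Gadd45g and Hsph1 above it and Egr1, Ier2 and Fos below it.

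**Figure D2:**
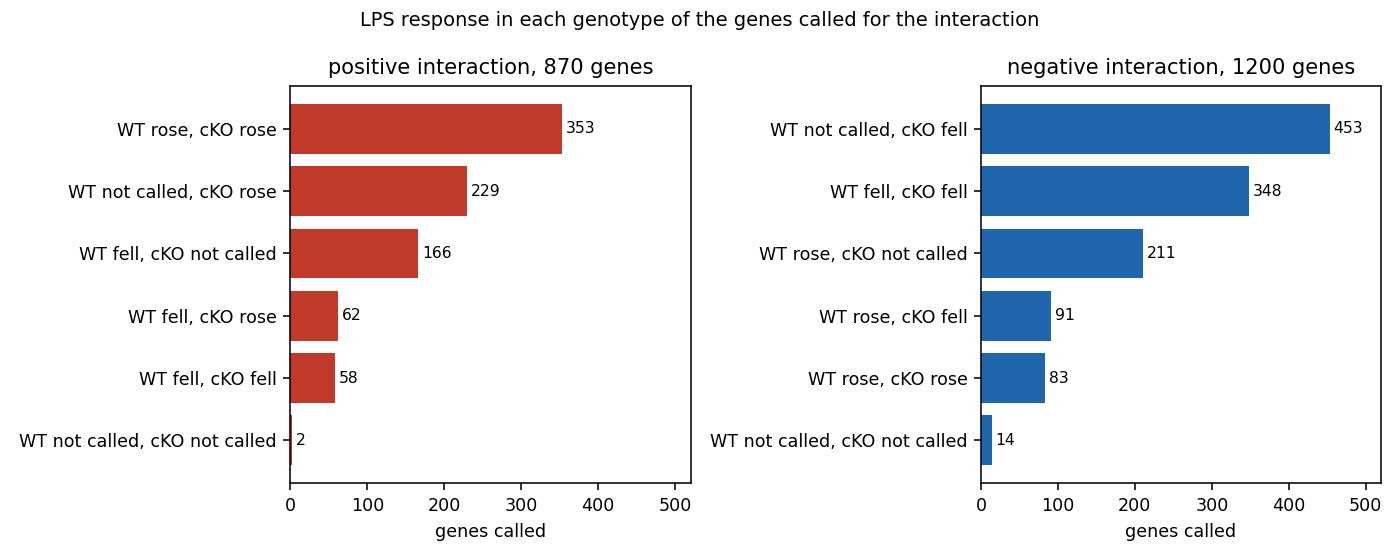
Number of genes called for the interaction (x axis, from 0) by whether LPS raised, lowered or gave no call for them in WT and in cKO. A rise in both genotypes is the most frequent class of positive calls (353 genes) and a fall in cKO with no call in WT the most frequent of negative calls (453 genes).

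Where the genotypes stood before and after LPS differed by gene. In medium 1876 genes (15.8%) were higher and 1707 (14.4%) lower in cKO, and under LPS 1901 (16.0%) were higher and 2293 (19.3%) lower. These comparisons share their libraries with the interaction and only describe it. Of the negative calls, 628 were lower in cKO under LPS with no call in medium, 340 were higher in medium with no call under LPS, and 108 were higher in medium and lower under LPS. Of the positive calls, 405 were higher under LPS with no call in medium, 310 were lower in medium with no call under LPS, and 80 were lower in medium and higher under LPS.

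Immediate early genes, which encode transcription factors and phosphatases made in the first response to a signal, held 5 of the 10 largest negative values among named genes. Of 30 tested members 14 (46.7%) had a negative interaction and 2 (6.67%) a positive one. The list median was -0.65, against -0.08 for all genes. The negative members were Fos, Fosb, Junb, Egr1, Egr2, Ier2, Klf2, Klf4, Klf6, Nr4a1, Dusp1, Dusp5, Btg2 and Zfp36. In medium 18 members were already higher in cKO and 2 lower, with a median of 1.32. Under LPS 12 members were higher in cKO and 6 lower, with a median of 0.17. The mean log2 CPM of the list was 5.26 to 5.42 in WT with LPS and 5.53 to 5.73 in cKO with LPS. LPS raised 20 and lowered 4 in WT, and raised 16 and lowered 10 in cKO. The count of negative members stayed between 13 and 15 under every alternative without a size requirement. In bulk RNA, fewer cells of a kind and less RNA per cell cannot be told apart.

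Egr1, a zinc finger factor induced by growth factor and stress signals, moved in opposite directions in the genotypes. For Egr1, medium gave 118, 94.9 and 89.5 CPM in WT and 380.0, 306 and 406 in cKO, and LPS gave 164, 202 and 137 in WT and 68.0, 61.3 and 42.1 in cKO. The cKO libraries were above every WT library in medium and below every WT library under LPS. LPS raised Egr1 1.66-fold in WT and lowered it 6.36-fold in cKO, an interaction of -3.40 ± 0.25 (SE, adjusted p = 5.9e-07). Ier2, another immediate early nuclear protein, had the same order of groups. Ier2 read 48.2, 82.2 and 76.2 CPM in medium and 91.5, 79.9 and 84.1 with LPS in WT, against 207, 169 and 214 in medium and 29.6, 38.4 and 23.7 with LPS in cKO. LPS lowered it 6.43-fold in cKO, the WT groups overlapped, and the interaction was -2.99 ± 0.27 (SE, adjusted p = 3.0e-06). Klf6, a Krüppel-like factor, reversed as well. In CPM, Klf6 went from 284, 281 and 266 to 447, 506 and 478 with LPS in WT and from 493, 452 and 532 to 317, 272 and 272 in cKO. It rose 1.72-fold in WT and fell 1.72-fold in cKO, with -1.56 ± 0.14 (SE, adjusted p = 1.1e-06).

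Fos and Dusp1 rose with LPS in both genotypes but from different starting levels. Fos was at 27.3, 13.6 and 25.6 CPM in WT medium, 486, 605 and 457 in WT with LPS, 118, 141 and 155 in cKO medium and 513, 439.8 and 342 in cKO with LPS. In medium all cKO libraries exceeded all WT libraries, and under LPS the genotypes overlapped. Fos, a subunit of the AP-1 factor, rose 23.3-fold in WT and 3.13-fold in cKO, an interaction of -2.90 ± 0.28 (SE, adjusted p = 8.6e-06). For Dusp1, medium gave 72.0, 59.8 and 60.6 CPM in WT and 332, 254 and 292 in cKO, and LPS gave 719, 1035 and 751 in WT and 826, 724 and 634 in cKO. Dusp1, a phosphatase that switches off MAP kinases, rose 13.0-fold and 2.49-fold, with -2.39 ± 0.21 (SE, adjusted p = 1.3e-06). Zfp36, which encodes the mRNA decay factor tristetraprolin, and Btg2, an antiproliferative gene, had the same shape. LPS raised Zfp36 7.03-fold in WT and 2.65-fold in cKO, and its interaction was -1.41 ± 0.19 (SE, adjusted p = 1.2e-04). For Btg2 the folds were 4.60 and 1.77 and the interaction -1.38 ± 0.17 (SE, adjusted p = 3.1e-05).

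Nr4a1, an orphan nuclear receptor, and Klf2 stood several-fold higher in cKO in medium. Nr4a1 read 32.7, 22.1 and 15.8 CPM in medium and 52.6, 40.4 and 44.8 with LPS in WT, against 139.9, 125 and 192 in medium and 33.7, 46.9 and 37.5 with LPS in cKO. The genotypes overlapped under LPS, and the interaction was -2.92 ± 0.36 (SE, adjusted p = 1.6e-04). In CPM, Klf2 went from 6.11, 9.61 and 4.88 to 5.26, 16.0 and 8.72 with LPS in WT and from 28.1, 33.0 and 42.2 to 5.09, 6.86 and 2.61 in cKO. Klf2 fell 7.08-fold in cKO, with no call in WT, and its interaction was -3.36 ± 0.53 (SE, adjusted p = 7.7e-04). Dusp6, a phosphatase acting on ERK, lies outside the immediate early list and had the group order of Ier2. Dusp6 was at 67.9, 66.6 and 59.6 CPM in WT medium, 81.3, 51.2 and 72.2 in WT with LPS, 185, 147 and 112 in cKO medium and 25.3, 26.3 and 17.4 in cKO with LPS. It fell 6.44-fold with LPS in cKO against a WT fold of 1.06, and the interaction was -2.76 ± 0.26 (SE, adjusted p = 3.1e-06). Fosb and Dusp5 were picked after their values were seen. For Dusp5, medium gave 3.48, 5.15 and 3.03 CPM in WT and 26.9, 38.8 and 44.5 in cKO, and LPS gave 8.17, 6.07 and 6.51 in WT and 14.7, 21.5 and 15.7 in cKO. Dusp5 rose 1.78-fold in WT and fell 2.12-fold in cKO, with -1.92 ± 0.43 (SE, adjusted p = 0.00538), and Fosb had -3.69 ± 0.52 (SE, adjusted p = 2.8e-04).

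The other direction was seen for Atf3 and Mafk, which were also picked after their values were seen. Atf3, a stress-induced repressor of cytokine genes, was called at 0.79 ± 0.22 (SE, adjusted p = 0.0184), rising 7.10-fold in WT and 12.3-fold in cKO. Mafk, a small Maf protein, had 1.53 ± 0.26 (SE, adjusted p = 7.8e-04). The positive count fell to 1 without cKO medium 1 or WT medium 1 and went to 4 without cKO medium 2 or WT LPS 1 and to 1 without the first library of both cKO groups. Granulocyte genes moved with the immediate early genes in one respect: their summed level was 7072 to 10615 CPM in cKO medium, 2766 to 3998 in WT medium, 4360 to 8173 in WT with LPS and 4678 to 8004 in cKO with LPS. Their part in the immediate early result was not tested. The Rn45s share was also lowest in cKO medium. Leaving Rn45s out of the counts moved the median of all genes only from -0.08 to -0.03. Egr1, Ier2, Fos, Dusp1 and Klf6 kept their calls there, but a shift that small cannot test what the Rn45s share reflects. Its part in these results was not tested.

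**Figure D3:**
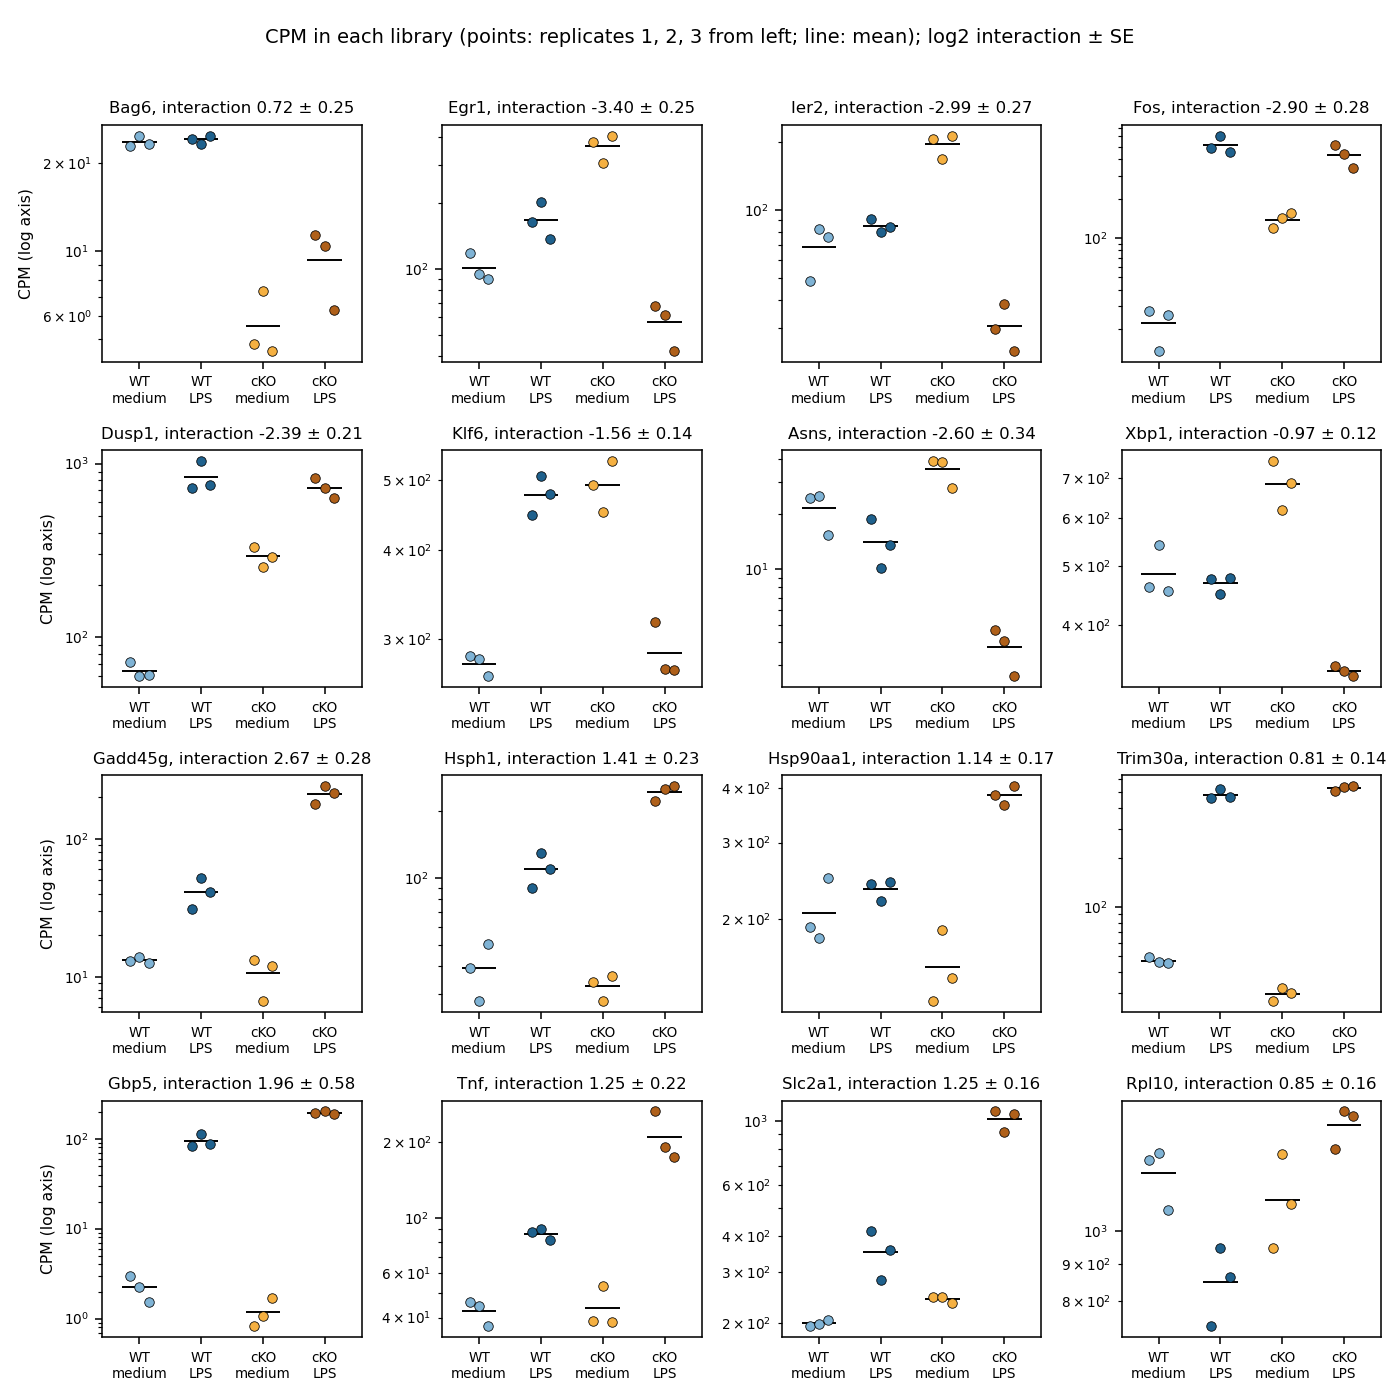
CPM of 16 genes in each of the 12 libraries, on a log axis whose range differs by gene; points are libraries 1, 2 and 3 of a group, lines are group means, and each heading gives the log2 interaction ± SE. Egr1, Ier2, Klf6, Asns and Xbp1 are highest in cKO medium and lowest, or near their lowest, in cKO with LPS, while Gadd45g, Hsph1, Tnf and Slc2a1 are highest in cKO with LPS.

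Dusp5 is shown with its promoter because the CArG box, the core of the serum response element, is the textbook control element of immediate early genes. A CArG box on either strand was in 6 of 33 RefSeq promoter windows of tested immediate early genes and in 6 of 16 windows of the negative ones, against 1.63% of all 32851 windows. A window runs from 250 bases before to 50 after a gene's start, and those 6 belong to only 3 of the 12 negative genes with a window, 4 of them to Egr2, where 3 windows overlap and hold the same box. This search was added after the data were seen. The Dusp5 stretch holds 2 adjoining boxes, in capitals, written 5′ to 3′ on the gene's strand from RefSeq (GRCm38.p6).

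Dusp5 (chr19:53529025-53529108, + strand): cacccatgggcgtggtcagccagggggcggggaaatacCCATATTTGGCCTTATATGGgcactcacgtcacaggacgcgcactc

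A match describes these letters only, and says nothing of which factor was bound.

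Among the other large negative values, Slfn4, a Schlafen gene induced by interferon, rose in both genotypes. Slfn4 read 5.60, 4.37 and 1.43 CPM in medium and 863, 420.0 and 853 with LPS in WT, against 10.2, 13.8 and 5.59 in medium and 222, 285 and 233 with LPS in cKO. Its rise was 187-fold in WT and 25.1-fold in cKO, with -2.90 ± 0.62 (SE, adjusted p = 0.00754), and all cKO LPS libraries lay below all WT LPS libraries. Cass4, a Cas-family adhesion scaffold, fell in both. In CPM, Cass4 went from 122, 92.7 and 51.1 to 31.2, 11.6 and 29.2 with LPS in WT and from 194, 193 and 155 to 6.79, 5.61 and 3.69 in cKO. The fall was 3.68-fold in WT and 33.4-fold in cKO, an interaction of -3.18 ± 0.53 (SE, adjusted p = 0.00176). Lrrc14, a leucine-rich repeat gene, overlapped in medium and was lower in every cKO library under LPS. Lrrc14 was at 15.4, 20.2 and 22.0 CPM in WT medium, 12.5, 13.2 and 11.5 in WT with LPS, 19.1, 16.6 and 19.2 in cKO medium and 1.56, 1.72 and 2.46 in cKO with LPS. It fell 1.55-fold in WT and 9.57-fold in cKO, with -2.63 ± 0.26 (SE, adjusted p = 1.7e-06). Chi3l1, a chitinase-like protein, had -2.74 ± 0.64 (SE, adjusted p = 0.0111), and that call was lost without the first library of both cKO groups (-2.26, adjusted p = 0.0605).

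Some of the smallest p-values within the response classes belonged to genes outside these lists. Rgs1 and Rgs2 encode proteins that shorten G protein signals. Rgs1 rose 14.7-fold in WT and 3.03-fold in cKO, with -2.28 ± 0.22 (SE, adjusted p = 2.7e-06). Rgs2 fell 2.96-fold in cKO alone by call, with -1.77 ± 0.21 (SE, adjusted p = 2.6e-05). Dclre1b, a telomere nuclease gene, and Abcd2, a peroxisomal transporter of fatty acids, fell in both genotypes and further in cKO, at -1.82 and -1.16. Tnfrsf23, Tor4a and Rhbdd2 rose in WT with no call in cKO, at -1.21, -0.76 and -0.96.

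Gadd45g, a stress and growth arrest gene, had the largest positive value of the named genes. For Gadd45g, medium gave 13.1, 14.0 and 12.5 CPM in WT and 13.2, 6.64 and 11.9 in cKO, and LPS gave 30.9, 52.3 and 41.04 in WT and 179.6, 241 and 214 in cKO. The genotypes overlapped in medium, and every cKO LPS library was above every WT LPS library. LPS raised it 3.13-fold in WT and 19.96-fold in cKO, an interaction of 2.67 ± 0.28 (SE, adjusted p = 1.5e-05). Qpct, the enzyme glutaminyl cyclase, fell in WT and rose in cKO. Qpct read 33.6, 29.8 and 39.2 CPM in medium and 11.0, 14.8 and 9.60 with LPS in WT, against 15.4, 9.14 and 12.2 in medium and 22.9, 25.1 and 26.1 with LPS in cKO. The fold was 2.90 down and 2.01 up, with 2.55 ± 0.30 (SE, adjusted p = 2.0e-05). Rab3il1, a Rab exchange factor, crossed in the same way, falling 2.53-fold and rising 1.61-fold, with 2.02 ± 0.23 (SE, adjusted p = 1.2e-05).

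Max, the partner of Myc on DNA, was lower in cKO in medium and higher under LPS. In CPM, Max went from 19.5, 22.1 and 23.8 to 19.5, 20.9 and 16.0 with LPS in WT and from 6.99, 13.8 and 7.92 to 28.7, 30.9 and 27.7 in cKO. LPS raised it 3.05-fold in cKO with no call in WT, and the interaction was 1.83 ± 0.25 (SE, adjusted p = 1.0e-04). Setdb2, a SET domain methyltransferase gene known to respond to interferon, rose in both. Setdb2 was at 9.68, 7.03 and 7.74 CPM in WT medium, 29.2, 30.1 and 30.4 in WT with LPS, 3.81, 4.23 and 3.26 in cKO medium and 45.0, 48.3 and 50.9 in cKO with LPS. Its folds were 3.67 and 12.7, with 1.80 ± 0.26 (SE, adjusted p = 2.0e-04). Plau (urokinase), Arpc3 (an actin branching subunit) and Mettl21e rose in cKO with no call in WT. Plau had 1.79 ± 0.34 (SE, adjusted p = 0.00259), Arpc3 2.04 ± 0.40 (SE, adjusted p = 0.00399) and Mettl21e 2.17 ± 0.32 (SE, adjusted p = 2.9e-04). Arpc3 and Plau were lower in all cKO than in all WT libraries in medium and higher under LPS. Denr, a translation reinitiation factor, rose in both. For Denr, medium gave 71.6, 63.4 and 63.9 CPM in WT and 52.7, 56.0 and 49.0 in cKO, and LPS gave 99.2, 95.8 and 90.0 in WT and 180.3, 186 and 198 in cKO. The interaction was 1.32 ± 0.12 (SE, adjusted p = 1.3e-06), with Nufip1, a ribonucleoprotein assembly factor, at 1.52 and D4Wsu53e at 1.45.

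Interferon-stimulated genes rose steeply in both genotypes, and 11 of 44 had a positive interaction. All 44 tested members of the type I list rose with LPS in WT and all 44 in cKO, by a median log2 response of 4.75 and 5.57. For the interaction those 11 members (25.0%, against 7.33% of all genes) were positive and 0 negative by edgeR (0 negative also at an unadjusted p under 0.05 and by DESeq2), the median was 0.55, and 38 values were above 0. In medium 9 members were lower in cKO and 1 higher, and under LPS 8 were higher and 2 lower. The positive count was 7 on the TPM scale, where the median was 0.21 against -0.25 for all genes, 7 without the first library of both cKO groups, and 19 with DESeq2. The list does not hold every interferon-induced gene: Slfn4, described above, lies outside it and had a negative interaction (-2.90).

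Trim30a, a tripartite motif protein that restrains TLR signalling, was lower in every cKO library than in every WT library in medium, and the genotypes overlapped under LPS. Trim30a read 49.3, 46.3 and 45.6 CPM in medium and 459, 522 and 469.5 with LPS in WT, against 26.5, 32.0 and 30.0 in medium and 509, 542 and 546 with LPS in cKO. It rose 10.3-fold in WT and 18.04-fold in cKO, with 0.81 ± 0.14 (SE, adjusted p = 6.1e-04). Zbp1, a sensor of Z-form nucleic acid, and Oas1a, an oligoadenylate synthetase, were also below every WT library in medium, and their cKO libraries lay above every WT library under LPS, with 0.80 ± 0.14 (SE, adjusted p = 7.0e-04) and 0.78 ± 0.17 (SE, adjusted p = 0.00377). Reads of the Oas family can be split between near-identical copies. Rtp4, an interferon-induced receptor transporter, was at a few counts in medium. In CPM, Rtp4 went from 1.44, 0.943 and 0.925 to 188, 232 and 214 with LPS in WT and from 0.181, 0.0962 and 0.745 to 238, 246 and 248 in cKO. Its interaction was 1.86 ± 0.42 (SE, adjusted p = 0.00499) and rests on few counts in the cKO medium libraries.

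Interferon-inducible GTPases, which attack vacuoles that hold microbes, had 4 positive members of 17 and 0 negative by edgeR (1 at an unadjusted p under 0.05 and 1 by DESeq2), with a median of 0.68. Irgm1 was at 17.4, 14.1 and 15.6 CPM in WT medium, 228, 278 and 218 in WT with LPS, 3.72, 10.01 and 3.54 in cKO medium and 219, 218 and 213 in cKO with LPS. Irgm1 (chr11:48865245-48871420) was lower in cKO in medium and overlapped under LPS, and its interaction was 1.30 ± 0.34 (SE, adjusted p = 0.0156). The call was lost without the first library of both cKO groups (1.06, adjusted p = 0.0703). For Gbp5, medium gave 2.97, 2.23 and 1.51 CPM in WT and 0.817, 1.06 and 1.68 in cKO, and LPS gave 83.5, 114 and 86.4 in WT and 195, 202 and 189 in cKO. Gbp5 (chr3:142496934-142522344), a guanylate-binding protein tied to inflammasome assembly, was higher in all cKO than in all WT libraries under LPS, with 1.96 ± 0.58 (SE, adjusted p = 0.0325). That call was lost without any single one of WT medium 1, WT medium 2, WT LPS 1, WT LPS 3, cKO medium 1, cKO medium 2 and cKO LPS 2 (adjusted p 0.0532 to 0.106). The other calls were Gbp3 at 1.04 (adjusted p = 0.0436), lost without any single one of WT medium 1, WT medium 2, WT LPS 1, WT LPS 3, cKO medium 1, cKO medium 2, cKO medium 3, cKO LPS 1, cKO LPS 2 and cKO LPS 3, and Gbp9 at 0.68 (adjusted p = 0.0498), lost without any single one of WT medium 2, WT medium 3, WT LPS 1, WT LPS 3, cKO medium 1, cKO medium 3, cKO LPS 1, cKO LPS 2 and cKO LPS 3. Both were also lost on the TPM scale (0.63 and 0.20), and Gbp9 under upper-quartile scaling (0.64). Gbp copies can share reads. Leaving out 1 library gave 1 to 4 positive GTPases: 1 without cKO LPS 2, cKO medium 1, WT LPS 1 or 3 or WT medium 2, and 2 without cKO LPS 1 or 3, cKO medium 2 or WT medium 1. Without the first library of both cKO groups the count was 0 of 17.

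The interferon-stimulated response element is the textbook site through which interferon signalling reaches these genes. Searched as GAAANNGAA on both strands and counted as windows with at least 1 match, it was in 22 of 39 promoter windows of the type I list and 9 of 10 of the GTPases. The share was 8.56% of all windows, 10.02% of the windows of positive calls and 5.47% of those of negative calls. The windows of 3 called genes of these lists are shown for the place of that element, in capitals, 5′ to 3′ on the gene's strand, from RefSeq (GRCm38.p6).

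Irgm1 (chr11:48871421-48871540, - strand): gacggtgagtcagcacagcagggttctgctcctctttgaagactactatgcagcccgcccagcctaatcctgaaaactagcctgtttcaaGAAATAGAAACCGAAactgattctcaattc
Trim30a (chr7:104465194-104465313, - strand): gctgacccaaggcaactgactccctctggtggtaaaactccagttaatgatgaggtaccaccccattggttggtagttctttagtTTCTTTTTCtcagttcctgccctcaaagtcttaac
Gbp5 (chr3:142496765-142496899, + strand): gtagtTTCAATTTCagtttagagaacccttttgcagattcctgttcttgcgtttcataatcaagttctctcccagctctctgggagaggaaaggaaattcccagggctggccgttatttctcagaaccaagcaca

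In Irgm1 the capitals cover 2 overlapping matches, and in Trim30a and Gbp5 the element reads on the other strand.

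Cytosolic chaperones responded to LPS more strongly in cKO for a sizeable share of the list. Of 29 tested members 11 had a positive interaction and 0 a negative one by edgeR (1 at an unadjusted p under 0.05, 0 by DESeq2), the median was 0.42, and 25 values were above 0. LPS raised 11 and lowered 9 in WT, and raised 19 and lowered 7 in cKO. Summed over the list, the level was 6975 to 7549.5 CPM in WT medium, 6781 to 8509 in WT with LPS, 7503 to 8080.4 in cKO medium and 13203 to 14399 in cKO with LPS. The cKO LPS libraries stood apart from the other 9. On the TPM scale 9 members were positive and 2 negative.

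Hsph1, an HSP110 exchange factor for HSP70, overlapped between genotypes in medium and separated under LPS. Hsph1 read 39.1, 27.8 and 50.3 CPM in medium and 90.1, 129 and 109 with LPS in WT, against 34.1, 27.9 and 36.0 in medium and 222, 252 and 258 with LPS in cKO. Its rise was 2.80-fold in WT and 7.46-fold in cKO, an interaction of 1.41 ± 0.23 (SE, adjusted p = 6.2e-04). Hsp90aa1, the inducible HSP90, rose in cKO alone by call. In CPM, Hsp90aa1 went from 192, 181 and 248 to 241, 221 and 243 with LPS in WT and from 129, 189 and 146 to 387, 367 and 405 in cKO. The fold was 2.49 in cKO, with 1.14 ± 0.17 (SE, adjusted p = 3.1e-04). Dnaja1, an HSP40 co-chaperone, rose 1.47-fold in WT and 2.86-fold in cKO. Dnaja1 was at 185, 163 and 201 CPM in WT medium, 233, 309.8 and 263 in WT with LPS, 211, 168 and 186 in cKO medium and 509.9, 568 and 541 in cKO with LPS. The interaction was 0.96 ± 0.15 (SE, adjusted p = 3.8e-04), and that of Hsp90ab1, the constitutive HSP90, was 0.74 ± 0.14 (SE, adjusted p = 0.00197). Hspa8 and the mitochondrial chaperones Hspd1 and Hspe1, named after their values were seen, had 0.66, 0.72 and 0.71. Hspd1 fell 1.84-fold in WT with no call in cKO. Hspd1 and Hspe1 share a bidirectional start region, and strand use in the counting is not given. The heat shock element core TTCNNGAA, on either strand, was in 9 of 35 windows of the chaperone list and in 6 of 14 windows of its positive members. The share was 8.52% of all windows and 7.23% of the windows of tested genes. Those 9 windows belong to 7 of 25 genes and those 6 to 4 of 8 genes.

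BAG6 itself works with chaperones, and genes of its own complex held 3 calls. Of 12 tested genes of tail-anchored protein insertion and the BAG6 complex 2 were positive (Bag6 and Rnf126) and 1 negative (Get4), 16.7% and 8.33% against 7.33% and 10.1% of all genes, with a median of -0.04. Get4, a BAG6 partner in tail-anchored insertion, was higher in cKO in medium, at -0.69 (adjusted p = 0.015), and its call was lost without cKO LPS 2 (adjusted p = 0.0534), without the first library of both cKO groups (0.0632) and in a fit of only the 4 groups (0.0502). In both of those last settings 0 of the 12 were called by edgeR, while 3 were negative and 0 positive on the TPM scale. Rnf126, a ubiquitin ligase recruited by BAG6, was at 0.96 (adjusted p = 0.0386) and lost its call without any single one of WT medium 2, WT medium 3, WT LPS 2, WT LPS 3, cKO medium 1, cKO medium 2, cKO LPS 1 and cKO LPS 3 (adjusted p 0.0524 to 0.0925), on the TPM scale (0.67) and under upper-quartile scaling (0.92).

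Cytosolic ribosomal protein genes were the list with the largest share of calls. Of 48 members tested 36 were positive and 0 negative by edgeR (0 also at an unadjusted p under 0.05 and by DESeq2), the median was 0.57, and 47 values were above 0. LPS lowered 42 in WT, by a median of -0.52, and raised 16 and lowered 4 in cKO, by a median of 0.12. In medium the median genotype difference was 0.11, and under LPS 47 of 48 were higher in cKO. The summed level was 31190.1 to 36132 CPM in WT medium, 20623 to 27378 in WT with LPS, 35839.7 to 37683 in cKO medium and 35708 to 41669.8 in cKO with LPS. On the TPM scale 21 were positive and 0 negative, with a median of 0.30, which is 0.55 above that of all genes. The counts place them 0.65 above.

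Rpl10 fell 1.42-fold in WT and rose 1.27-fold in cKO. For Rpl10, medium gave 1255, 1283 and 1071 CPM in WT and 946, 1279.6 and 1089 in cKO, and LPS gave 737, 946 and 865 in WT and 1298, 1466 and 1443 in cKO. In medium the genotypes overlapped, and under LPS every cKO library was above every WT library. The interaction was 0.85 ± 0.16 (SE, adjusted p = 0.00149), and Rpl28 had 1.04 ± 0.19 (SE, adjusted p = 0.00107). Ribosomal protein genes have many near-identical pseudogene copies, and how their reads were shared is not given in the sources used here. Npm1, a nucleolar chaperone of ribosome assembly, fell 2.56-fold in WT and 1.70-fold in cKO, with 0.59 ± 0.13 (SE, adjusted p = 0.00337), and did not pass on the TPM scale (0.32). The wider Myc and ribosome biogenesis list had 3 positive and 2 negative calls of 35.

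**Figure D4:**
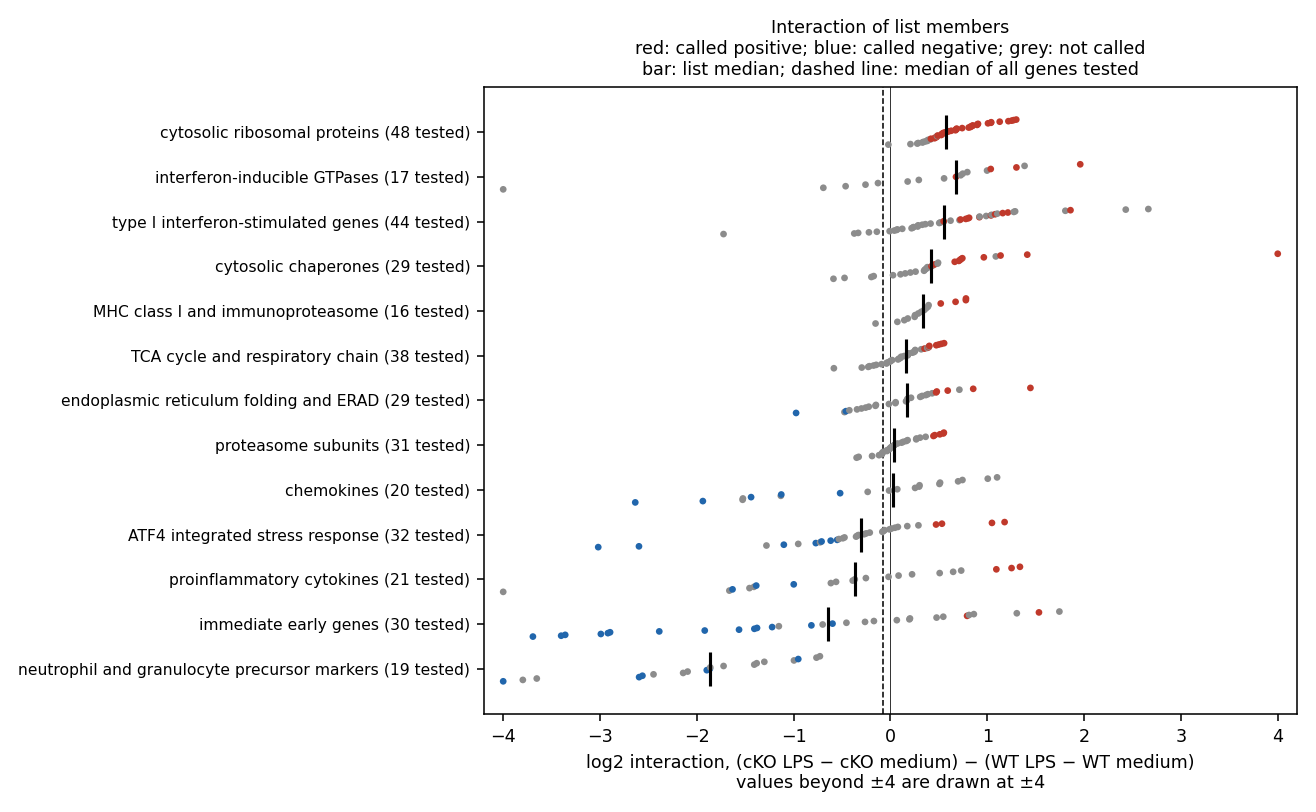
Log2 interaction (x axis) of every tested member of 13 gene lists; red and blue points passed the test, grey points did not, bars are list medians and the dashed line is the median of all genes (-0.08). Ribosomal proteins lie almost all above 0, immediate early genes spread mostly below it, and all 19 granulocyte markers are below it.

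Cytokines were called in both directions on counts. Of 21 proinflammatory cytokines tested, all 21 rose with LPS in WT and 19 in cKO, and the interaction was positive for 3 (14.3%) and negative for 3 (14.3%), with a median of -0.37. On the TPM scale 2 were positive and 8 negative. Tnf, the classic early cytokine, overlapped in medium and was higher in every cKO library under LPS. Tnf read 46.3, 44.5 and 36.8 CPM in medium and 87.7, 90.1 and 81.3 with LPS in WT, against 38.7, 53.6 and 38.5 in medium and 266, 191 and 174 with LPS in cKO. It rose 2.03-fold in WT and 4.83-fold in cKO, with 1.25 ± 0.22 (SE, adjusted p = 0.00107). Tnfsf9, the ligand of CD137, had the same shape, with 1.34 ± 0.29 (SE, adjusted p = 0.00377). Osm, an IL-6 family cytokine, was higher in cKO at both points. In CPM, Osm went from 57.7, 55.0 and 49.7 to 360.4, 414 and 401 with LPS in WT and from 284, 256 and 262 to 904, 1028 and 971 in cKO. Its rise was 7.23-fold in WT and 3.62-fold in cKO, an interaction of -0.999 ± 0.15 (SE, adjusted p = 2.1e-04). Csf1, the macrophage growth factor, rose 1.93-fold in WT and fell 1.61-fold in cKO. Csf1 was at 30.4, 30.1 and 22.5 CPM in WT medium, 53.04, 51.5 and 55.5 in WT with LPS, 80.5, 64.7 and 52.3 in cKO medium and 48.9, 34.5 and 39.4 in cKO with LPS. The interaction was -1.63 ± 0.23 (SE, adjusted p = 1.6e-04).

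Il6 and Il1b were higher in cKO in every library of both conditions but did not pass for the interaction, at -0.62 (adjusted p = 0.1) and -0.56 (adjusted p = 0.0975). For Il6, medium gave 7.81, 8.06 and 5.97 CPM in WT and 16.5, 23.8 and 20.6 in cKO, and LPS gave 125, 100.1 and 95.3 in WT and 204, 195 and 183 in cKO. LPS raised Il6 14.6-fold in WT and 9.56-fold in cKO. Both passed on the TPM scale, where Il6 was at -0.82 and Il1b at -0.87, and with no filter on low counts (adjusted p = 0.0229 and 0.0163). Il6 also passed with the replicate number as a block (adjusted p = 0.0403), and Il1b without WT medium 1. Nos2, inducible nitric oxide synthase, rose 36.6-fold and 30.7-fold, with -0.26 (adjusted p = 0.614). Il12b, a chain of the cytokine IL-12, was near 1 CPM in medium, and its interaction of 0.22 ± 2.39 (SE) leaves its size unresolved at this spread. Il10 was at 1.10 CPM on average in cKO with LPS and 2.07 in WT with LPS, with -1.66 (adjusted p = 0.342), and rests on few counts. Il10 passed on the TPM scale (-1.05, adjusted p = 0.0297). Irg1, the itaconate-producing enzyme, and Socs3, a feedback inhibitor of cytokine receptors, did not pass, with -0.67 (adjusted p = 0.0743) and -0.59 (adjusted p = 0.055). Both passed on the TPM scale (-0.93 and -0.85) and with no filter on low counts (adjusted p = 0.00275 and 0.0113). Irg1 also passed in a fit of only the 4 groups (adjusted p = 0.0267), and Socs3 under upper-quartile scaling (0.0421) and with the replicate block (0.0418). Cebpb, a factor for inflammatory genes, was at 66.1 CPM on average in cKO medium and 1.90 in WT medium with no call for LPS in either, and its interaction was -0.53 (adjusted p = 0.72).

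Chemokines had 5 negative members of 20 (25.0%) and 0 positive by edgeR (1 at an unadjusted p under 0.05 and 1 by DESeq2). Their median was 0.03. Ccl4, an attractant of monocytes and T cells, started higher in cKO and reached overlapping levels. Ccl4 read 106, 78.5 and 76.4 CPM in medium and 366, 381 and 334 with LPS in WT, against 206, 201 and 224 in medium and 369, 422 and 407 with LPS in cKO. The rise was 4.15-fold in WT and 1.90-fold in cKO, with -1.13 ± 0.18 (SE, adjusted p = 3.8e-04). The coordinates of Ccl3 and Ccl4 overlap, so their reads may not be fully separate. Ccl3 had -0.52 ± 0.16 (SE, adjusted p = 0.0257), a call lost without any single one of WT medium 2, WT LPS 2, cKO medium 1, cKO LPS 1 and cKO LPS 3 (adjusted p 0.0516 to 0.0987), without the first library of both cKO groups (0.103) and under RLE scaling (0.0588). Cxcl2, a neutrophil attractant, rose 3.28-fold in WT with no call in cKO, at -1.44 (adjusted p = 0.00546). Ccl7 was at -2.64 (adjusted p = 0.0343) and lost its call without any single one of WT medium 1, WT medium 2, WT LPS 1, cKO medium 1, cKO medium 2, cKO medium 3, cKO LPS 1, cKO LPS 2 and cKO LPS 3 (adjusted p 0.0504 to 0.0972) and without the first library of both cKO groups (0.0861). Without cKO LPS 3, cKO medium 1 or WT medium 2 the list count was 2, and without cKO LPS 1 or 2, cKO medium 2, WT LPS 1 or WT medium 1, or without the first library of both cKO groups, it was 3. Ccl5, a late chemokine, and Cxcl10, an interferon-induced one, did not pass, at 0.51 (adjusted p = 0.881) and 1.10 (adjusted p = 0.284), but passed with no filter on low counts (adjusted p = 0.0233 and 0.00268). WT medium 3 stood apart from the other WT medium libraries in Ccl5, at 9.17 CPM against 70.3 and 62.9.

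In the receptor pathway itself, Tlr4 fell in cKO. In CPM, Tlr4 went from 178, 166 and 165 to 169, 127 and 153 with LPS in WT and from 226, 208 and 169 to 85.9, 84.8 and 85.4 in cKO. The genotypes overlapped in medium, and under LPS all cKO libraries were below all WT libraries. LPS lowered Tlr4 2.35-fold in cKO with no call in WT, an interaction of -1.05 ± 0.15 (SE, adjusted p = 2.1e-04). Traf6, the ubiquitin ligase downstream of MyD88, moved the other way. Traf6 was at 79.4, 88.6 and 66.6 CPM in WT medium, 190.4, 193 and 201 in WT with LPS, 80.8, 100.3 and 76.3 in cKO medium and 393, 395 and 375 in cKO with LPS. It rose 2.49-fold in WT and 4.52-fold in cKO, with 0.86 ± 0.16 (SE, adjusted p = 0.00124). Mapk14, the p38 kinase, fell 1.64-fold and 3.39-fold, with -1.04 ± 0.20 (SE, adjusted p = 0.00154). The TLR4 list had 4 positive (14.8%) and 2 negative (7.41%) members of 27. The positive count was 1 without WT LPS 1 or 3, WT medium 3, cKO LPS 1 or cKO medium 1, and 1 without the first library of both cKO groups. It was 2 without cKO LPS 2 or 3, cKO medium 3 or WT medium 2. The NF-kB list had 3 positive (13.6%) and 4 negative (18.2%) of 22. Its positive count was 2 without the first library of both cKO groups, 5 without cKO medium 2 or WT medium 3, and 6 under RLE scaling and with DESeq2. On the TPM scale the TLR4 list had 1 positive and 6 negative and the NF-kB list 1 and 9.

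Feedback regulators of NF-kB differed in direction. Tnfaip3, which encodes A20, rose 3.61-fold in WT and 1.61-fold in cKO, with -1.17 ± 0.18 (SE, adjusted p = 3.6e-04). For Tnfaip3, medium gave 115, 119 and 90.4 CPM in WT and 199.6, 244 and 191 in cKO, and LPS gave 400.1, 356 and 419.6 in WT and 364, 336 and 324 in cKO. It started higher in cKO and ended at overlapping levels. Nfkbiz, a nuclear IkB needed for secondary genes, had -1.22 ± 0.21 (SE, adjusted p = 8.9e-04). Zc3h12a, which encodes the endonuclease Regnase-1, rose 1.80-fold in WT and 4.18-fold in cKO. Zc3h12a read 12.7, 14.0 and 13.0 CPM in medium and 23.5, 26.5 and 21.2 with LPS in WT, against 9.35, 10.5 and 11.0 in medium and 44.6, 41.9 and 42.3 with LPS in cKO. Its interaction was 1.22 ± 0.20 (SE, adjusted p = 4.8e-04). Ptpn2, a phosphatase that dampens JAK-STAT signals, also rose more in cKO. In CPM, Ptpn2 went from 102, 105 and 86.0 to 148, 179.8 and 162 with LPS in WT and from 116, 112 and 121 to 396, 420.3 and 415 in cKO. The folds were 1.67 and 3.52, with 1.08 ± 0.15 (SE, adjusted p = 1.5e-04).

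Stress response genes also went both ways. Asns, asparagine synthetase and a target of ATF4, was higher in cKO in medium and lower under LPS. Asns was at 24.5, 25.2 and 15.5 CPM in WT medium, 18.8, 10.2 and 13.6 in WT with LPS, 39.1, 38.8 and 27.8 in cKO medium and 4.67, 4.05 and 2.61 in cKO with LPS. LPS lowered it 1.53-fold in WT and 9.26-fold in cKO, with -2.60 ± 0.34 (SE, adjusted p = 1.1e-04). Slc1a5, a glutamine transporter, fell 6.02-fold and 12.9-fold, with -1.10 ± 0.26 (SE, adjusted p = 0.00677). Nupr1, a stress-induced chromatin protein, rose 5.56-fold and 12.6-fold, with 1.18 ± 0.29 (SE, adjusted p = 0.00897). For Nupr1, medium gave 5.43, 4.72 and 4.88 CPM in WT and 8.71, 5.68 and 9.96 in cKO, and LPS gave 18.9, 34.5 and 30.3 in WT and 96.5, 102 and 109 in cKO. Atf4 itself was positive at 0.53 (adjusted p = 0.00664) on counts and did not pass on the TPM scale (0.26). The ATF4 list had 4 positive (12.5%) and 7 negative (21.9%) members of 32, with 11 negative without WT LPS 2 and 12 on the TPM scale. The negative count was 4 without the first library of both cKO groups. It was 5 without cKO LPS 2 or 3 and in a fit of only the 4 groups.

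Xbp1, the factor of the unfolded protein response that IRE1 splices, fell in cKO alone by call. Xbp1 read 462, 541 and 455 CPM in medium and 476, 450.3 and 479 with LPS in WT, against 746, 620.2 and 685 in medium and 342, 336 and 329 with LPS in cKO. Every cKO library exceeded every WT library in medium and lay below every WT library under LPS, and the interaction was -0.97 ± 0.12 (SE, adjusted p = 4.7e-05). Ern1, which encodes IRE1, rose 2.55-fold in WT and 6.95-fold in cKO. In CPM, Ern1 went from 3.74, 4.37 and 5.38 to 11.6, 12.6 and 10.3 with LPS in WT and from 4.99, 3.46 and 3.35 to 30.4, 29.5 and 22.5 in cKO. The interaction was 1.45 ± 0.26 (SE, adjusted p = 0.0011). Manf, a secreted endoplasmic reticulum protein, fell 1.32-fold and rose 1.37-fold, with 0.85 ± 0.18 (SE, adjusted p = 0.00354). Hspa5, the chaperone BiP, did not pass, at 0.33 (adjusted p = 0.279). The endoplasmic reticulum list had 5 positive (17.2%) and 2 negative (6.90%) members of 29 on counts. It had 8 positive without cKO medium 2, 3 positive without the first library of both cKO groups, 1 negative without cKO LPS 2 or 3, and 2 positive and 8 negative on the TPM scale.

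Slc2a1 and Pfkfb3 of the glycolysis list rose more in cKO. Slc2a1, the glucose transporter GLUT1, rose 1.76-fold in WT and 4.19-fold in cKO. Slc2a1 was at 195, 199.7 and 205 CPM in WT medium, 417, 282 and 359 in WT with LPS, 248, 247 and 236 in cKO medium and 1082, 919 and 1059.5 in cKO with LPS. The cKO LPS libraries were all above every other library, with 1.25 ± 0.16 (SE, adjusted p = 6.8e-05). Pfkfb3, which makes the activator of phosphofructokinase, rose 8.03-fold and 18.4-fold. For Pfkfb3, medium gave 17.4, 16.6 and 11.4 CPM in WT and 19.8, 23.7 and 14.2 in cKO, and LPS gave 119, 132 and 114 in WT and 359, 357 and 349 in cKO. The interaction was 1.20 ± 0.24 (SE, adjusted p = 0.00245). The glycolysis list as a whole had 3 positive (8.33%) and 1 negative (2.78%) of 36 and a median of -0.01. On the TPM scale its counts were 2 and 6, where 419 and 2890 of all 11876 genes were called. Hmox1, heme oxygenase, rose 7.66-fold and 13.4-fold, with 0.81 ± 0.19 (SE, adjusted p = 0.00627). Redox genes of the NRF2 list had 8 positive (33.3%) and 3 negative (12.5%) of 24, against 7.33% and 10.1% of all genes. The list counts became 4 and 8 on the TPM scale, with 1 negative without cKO LPS 2. Txn1, thioredoxin, was at 0.92 (adjusted p = 0.00162), Tkt, transketolase, at 0.90 (adjusted p = 0.00107), and Gsr, glutathione reductase, at -1.14 (adjusted p = 0.00312). Respiratory chain and TCA genes had 7 positive members (18.4%) of 38 on counts, against 0 positive and 5 negative by limma on the TPM scale. Their median lay 0.24 above that of all genes on counts and 0.13 above it on TPM. The positive count was 3 without cKO LPS 3 or WT medium 3 and 4 without cKO medium 1 or WT LPS 1 or 3. Proteasome subunits had 5 positive (16.1%) of 31 on counts, 3 without WT LPS 1, and 5 negative on the TPM scale. Their median lay 0.12 above that of all genes on counts and 0.01 above it on TPM.

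Genes of lipid metabolism were called in both directions on counts and mostly negative on TPM. The fatty acid list had 1 positive (4.17%) and 4 negative (16.7%) members of 24, and the cholesterol synthesis list 3 (13.6%) and 2 (9.09%) of 22, against 7.33% and 10.1% of all genes. On the TPM scale the counts were 1 and 8 for the fatty acid list and 1 and 9 for the cholesterol list. Alox5, the lipoxygenase that starts leukotriene synthesis, fell 4.09-fold in WT and 13.1-fold in cKO. Alox5 read 109, 104 and 100.0 CPM in medium and 30.3, 15.6 and 30.3 with LPS in WT, against 138, 145 and 112 in medium and 8.77, 12.2 and 9.23 with LPS in cKO. It had -1.68 ± 0.27 (SE, adjusted p = 6.1e-04). Ptgs1, cyclooxygenase 1, fell 4.94-fold and 12.3-fold, with -1.31 ± 0.25 (SE, adjusted p = 0.00229). Pparg, a nuclear receptor for fatty acids, fell 1.81-fold and 4.70-fold, with -1.38 ± 0.26 (SE, adjusted p = 0.00171). Acly, which makes cytosolic acetyl-CoA, had -0.77 (adjusted p = 0.00828). Fasn, fatty acid synthase, had -1.76 (adjusted p = 0.00538) on counts and -0.02 on log2(TPM + 1). In sterol metabolism, Insig1, which retains the SREBP escort in the endoplasmic reticulum, rose in cKO alone by call. In CPM, Insig1 went from 61.9, 56.0 and 53.4 to 53.6, 69.2 and 60.6 with LPS in WT and from 48.4, 50.3 and 45.1 to 100.0, 122 and 115 in cKO. The interaction was 1.13 ± 0.18 (SE, adjusted p = 3.8e-04). Lss, lanosterol synthase, had -1.08 (adjusted p = 8.5e-04). The efflux transporters Abca1 and Abcg1 had 1.21 (adjusted p = 0.0024) and 0.76 (adjusted p = 0.00306).

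On counts, the members of the MHC class I, MHC class II and dendritic cell maturation lists called by edgeR all had a positive interaction. MHC class I and immunoproteasome genes had 4 positive of 16 (25.0%, against 7.33% of all genes) and a median of 0.33, with 2 positive without cKO LPS 2, cKO medium 1, WT LPS 1 or WT LPS 3 and 1 positive and 1 negative on the TPM scale. Tapbpl, a peptide-loading editor, was at 0.78 (adjusted p = 0.00521) and Psme1, a proteasome activator subunit, at 0.52 (adjusted p = 0.0145), which did not pass on the TPM scale (0.24). The class II list had 2 positive of 15 (13.3%), 8 without WT medium 3, and 1 without cKO LPS 2, cKO medium 1 or 2, WT LPS 1 or 3 or WT medium 1 or 2. The dendritic cell maturation list had 1 positive of 19, Relb at 0.63 (adjusted p = 0.017), which was lost without 1 library, cKO medium 1 (adjusted p = 0.0516), without the first library of both cKO groups (0.0696), and on the TPM scale (0.35). Cd86 and Ccr7, both raised by maturation, were at -0.05 (adjusted p = 0.973) and -0.22 (adjusted p = 0.939). WT medium 3 held Ccr7 at 17.2 CPM against 212 and 216 in the other WT medium libraries, and Cd86 at 13.7 against 71.2 and 50.3, so the spread for these genes is wide. Cd274, which encodes PD-L1, was at 0.57 (adjusted p = 0.161) and passed with no filter on low counts (0.60, adjusted p = 0.00615), and Cd38, an ectoenzyme, rose 5.81-fold in WT and 2.90-fold in cKO (adjusted p of the interaction = 0.00256).

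The other lists held calls in both directions or few calls. Of 25 p53 targets and growth arrest genes 1 was positive and 6 negative, among them Gadd45a, a stress sensor, at -1.40 (adjusted p = 0.013), and Sesn1, a sestrin, at -1.01 (adjusted p = 0.00885). Gadd45a was at 4.84, 5.23 and 6.31 CPM in WT medium, 3.80, 7.47 and 7.06 in WT with LPS, 18.1, 30.8 and 23.9 in cKO medium and 8.49, 14.0 and 8.46 in cKO with LPS. Glucocorticoid receptor targets had 4 positive and 5 negative of 19, with the kinase gene Sgk1 at 1.16 (adjusted p = 0.00237) and the phosphatase Dusp1 described above. JAK-STAT feedback genes had 3 and 2 of 25, costimulatory and inhibitory surface molecules 2 and 1 of 20, immune metabolism enzymes 3 and 2 of 20, and LXR targets 2 and 2 of 15. These became, on the TPM scale, 3 and 8, 2 and 9, 1 and 2, 2 and 3, and 2 and 4. Cell cycle genes had 5 positive of 35 (14.3%) on counts, 2 without the first library of both cKO groups, and 0 by limma on TPM. Lysosomal genes had 2 positive of 32 on counts and 1 positive and 10 negative on TPM. Among the 35 tested genes of a list of common readouts of this response 6 were positive (17.1%) and 4 negative (11.4%). Icam1, an adhesion molecule that LPS induces, was at 0.60 (adjusted p = 0.00846). For Icam1, medium gave 146, 135 and 134 CPM in WT and 120.1, 137 and 111 in cKO, and LPS gave 295, 264 and 254 in WT and 387, 400.2 and 310.0 in cKO. Its call was lost on the TPM scale (0.32, adjusted p = 0.136), where 3 of the 35 were positive and 12 negative.

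Markers of other cell types were checked beside these results. All 19 tested neutrophil and granulocyte precursor genes had a value below 0, with a median of -1.87, and 6 were called negative (Prtn3, Ctsg, Ngp, Mmp9, Cebpe and Chi3l3). Without the first library of both cKO groups only 2 of the 19 were called negative, with Ctsg and Mmp9 among the calls lost (adjusted p = 0.126 and 0.139). A fit of only the 4 groups also gave 2 negative calls. In medium 15 were higher in cKO, the median genotype difference went from 1.45 in medium to -0.34 under LPS, and LPS lowered 12 in cKO. The sum over the list by library was 3998, 3776 and 2766 CPM in WT medium, 4360, 4397 and 8173 in WT with LPS, 9468, 10615 and 7072 in cKO medium and 4678, 8004 and 5548 in cKO with LPS. The cKO medium libraries and single libraries of both LPS groups were high. Cebpe, a factor of granule formation, was at -1.87 (adjusted p = 0.00234) and Prtn3, proteinase 3, at -2.56 (adjusted p = 0.00947). Cebpe read 2.12, 3.52 and 3.11 CPM in medium and 3.24, 3.38 and 4.19 with LPS in WT, against 9.62, 7.60 and 6.80 in medium and 1.98, 3.74 and 2.46 with LPS in cKO. The negative count was 10 with DESeq2. Leaving out 1 library gave 2 without cKO medium 1 or 2, cKO LPS 1, WT medium 3 or WT LPS 3, 3 without cKO LPS 3, WT LPS 1 or WT medium 2, and 13 without cKO medium 3. Whether granulocyte content had a part in the other results was not tested. Of the 14 tested dendritic cell markers 0 were called by edgeR and 0 by DESeq2, with 2 at an unadjusted p under 0.05 and 3 called by limma on TPM. Of 2 tested lymphocyte markers, Lck and Thy1, 0 were called by edgeR, DESeq2 or limma on log2(TPM + 1), with 1 at an unadjusted p under 0.05, and Lck was called by limma on log2(TPM + 0.1) (-1.66, adjusted p = 0.0381). Macrophage genes had 3 positive (15.8%) and 3 negative (15.8%) of 19. Fcgr1, the high-affinity IgG receptor, was at 1.38 (adjusted p = 0.00307), C1qb, a complement subunit, at 1.25 (adjusted p = 0.00199), Emr1, which encodes the F4/80 antigen, at -1.26 (adjusted p = 1.1e-04), and C5ar1, the C5a receptor, at -1.68 (adjusted p = 0.00337). The positive count was 5 without WT LPS 2. Calls were 0 of 11 mast cell, 1 of 8 plasmacytoid, 1 of 4 erythroid and 0 of 6 stromal genes by edgeR, and 1, 2, 1 and 0 of these by DESeq2.

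**Figure D5:**
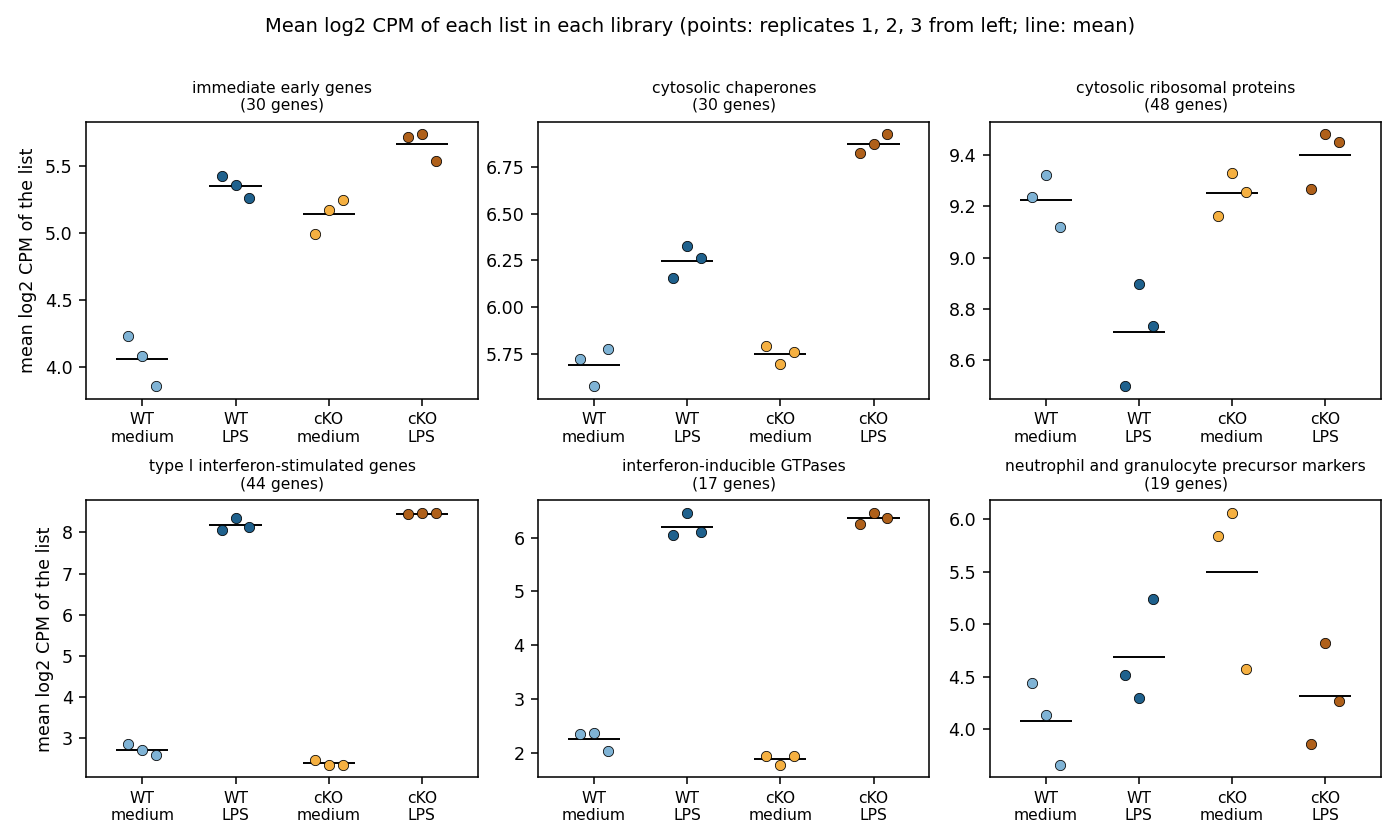
Mean log2 CPM of 6 gene lists (y axis, range differs by list) in each library; points are libraries 1, 2 and 3 of a group and lines are group means. Immediate early genes are higher in cKO medium than in WT medium, chaperones are highest in cKO with LPS, ribosomal proteins are lowest in WT with LPS, and granulocyte markers are highest on average in cKO medium.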

How the data were processed

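RNA was sequenced with an Illumina TruSeq kit from 18 libraries of 6 groups, of which the 12 libraries of 4 groups described here form the interaction. The authors' deposited tables list, per gene, RSEM expected counts and TPM (abundance scaled by gene length and depth), per the file headers. RSEM, bcl2fastq and build mm10 are named in the submitters' processing notes, with no versions, while the series' design text names other aligners. The aligner settings, the annotation version and whether strand was used are not given in the sources used here. Reads of overlapping genes and of near-identical copies (ribosomal protein pseudogenes, Gbp and Oas families) may be split. The sources mention 5 biological replicates in one place and triplicates in another, and 3 libraries per group are held.

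Expected counts were rounded to whole numbers, filtered with filterByExpr to 11876 of 23420 genes, scaled by TMM and fitted over all 6 groups with edgeR 4.0.16 (R 4.3.3), using the robust quasi-likelihood test. The SE of a log2 difference is its size over the square root of F. P-values were Benjamini-Hochberg adjusted over all 11876 genes, with calls at under 0.05. CPM are counts scaled to the TMM-adjusted library size. The common biological coefficient of variation was 0.133. The fit was tested on simulated data with known changes and the same spread for every gene, unlike the real libraries. It recovered 9 of 67 interactions of 1.5-fold, 37 of 63 of 2-fold and 64 of 66 of 4-fold, with 7 false calls. Replicates of a group differed by more than sampling noise (chi-square per degree of freedom 3.64 to 36.3). Alternatives included DESeq2 1.42.0, limma 3.58.1 on log2(TPM + 1) and log2(TPM + 0.1), other scalings and filters, and each library left out.

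The members and the 30 pathway, 8 cell type and 1 readout lists were chosen with earlier results of these data known. Named genes are Bag6, the 10 largest positive and 10 largest negative called values at a mean log2 CPM of at least 3, up to 4 called members of a list by smallest p, the readout genes, and the 3 called genes with the smallest p in each response class. Genes said to be picked after their values were seen, and those that only complete a count, fall outside this rule. Gene coordinates and promoter windows are from RefSeq (GRCm38.p6), which held windows for 8871 of the tested genes. Stretches overlapping annotated untranslated exons (GENCODE vM21) were not printed.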

Additional observations from a re-analysis of the deposited data

Results flagged for a closer look

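The genotype difference in the LPS response was tested gene by gene as an interaction, and 2070 genes passed (edgeR quasi-likelihood test, Benjamini-Hochberg adjusted p under 0.05). The 20 largest named values are listed here because the 2 genotypes responded differently to the same treatment.

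Of the positive values, Gadd45g had a log2 interaction of 2.67, Qpct 2.55, Mettl21e 2.17, Arpc3 2.04 and Rab3il1 2.02. Gbp5 had 1.96, Rtp4 1.86, Max 1.83, Setdb2 1.80 and Plau 1.79. Rtp4 and Gbp5 were at low levels in cKO medium, and the Gbp5 call was lost when any of 7 single libraries was left out.

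Of the negative values, Egr1 had -3.40, Klf2 -3.36, Cass4 -3.18, Ier2 -2.99 and Nr4a1 -2.92. Slfn4 had -2.90, Fos -2.90, Dusp6 -2.76, Chi3l1 -2.74 and Lrrc14 -2.63. The Chi3l1 call was lost without the first library of both cKO groups.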

How the results depend on the processing

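No gene called here had the opposite call under the 24 alternatives run, but the share of positive calls ran from 11.05% to 55.5% between them. Against 2070 calls (870 positive, 1200 negative), limma on log2(TPM + 1) gave 3309 (419 and 2890) and on log2(TPM + 0.1) 3403 (376 and 3027). Leaving out the first library of both cKO groups gave 1268 (540 and 728), and requiring a log2 difference of at least 1 gave 732 (259 and 473). A fit of only the 4 groups gave 748 negative calls. Leaving out 1 library gave 728 to 1311 negative calls, the fewest without cKO LPS 2, with 745 without cKO LPS 3. The cause of these shifts was not tested, other than that fewer libraries or a size requirement leave fewer calls by construction. RLE scaling, DESeq2 and leaving out Rn45s gave 2012, 2220 and 2015 calls, with 55.2% positive under RLE against 42.0%.

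With the replicate number as a replicate block, 2141 genes were called, 884 positive and 1257 negative. Correlations of same-numbered libraries ran from -0.263 to 0.265 over the pairs of groups. For cKO medium against cKO LPS they were 0.218, 0.0247 and 0.265, and the first libraries of both share the Xist pattern. One of these is under 0.1 and nothing in the labels ties the libraries, so the numbers were not taken to pair the samples. With the block Gbp9 (adjusted p = 0.0613) and Nlrc5 (0.0558) lost their call, and Il6 (0.0403), Socs3 (0.0418), Irf8 (0.0424) and Cxcl1 (0.0293) gained one.

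Of the values of named genes under the alternatives, 3896 kept their side of the threshold, 441 lost it and 65 gained it. Of 151 named genes called, 116 kept the call with each library left out in turn. With 3 libraries a group, a gene that did not pass is not shown to respond alike. Genes at a few counts in medium, such as Rtp4, Il12b and Il10, have uncertain fold changes.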
